A study of Mus musculus with 38 samples.

Results

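Wild-type mouse testes of day 19 were compared with wild-type testes of day 13 after birth, counting birth as day 1. These are 4 of the 38 bead arrays of the series, chosen by their labelled genotype and age: 2 arrays of day 19 and 2 of day 13, called replicates A and B. The mice were untreated wild-type littermates of LuRKO mice, which lack a functional receptor for luteinizing hormone. Each array held RNA of whole testes pooled from 2 animals, and the sources used here do not name the strain. The step is set beside the same step in untreated LuRKO testes (2 arrays of day 19 and 2 of day 13) and beside the neighbouring wild-type steps, from day 8 to day 13 and from day 19 to day 27 (2 arrays each). Pools of different animals were labelled as biological replicates, and p-values describe the spread between pools within groups. That spread was estimated over all 38 arrays, which include testes of LuRKO mice injected with testosterone or vehicle.

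Germ cells of the first wave of spermatogenesis develop nearly in step in the young mouse testis. Spermatogonia enter meiosis in the second week, spermatocytes then pass through the long pachytene stage, and the earliest haploid round spermatids form near the end of the third week. Pachytene is known for a broad switch of transcription, in which the X and Y chromosomes are silenced and autosomal testis-specific genes come on. Over the same weeks Sertoli cells, the supporting cells of the tubule, stop dividing, mature and build the blood-testis barrier, while adult Leydig cells replace fetal ones as the source of androgen.

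Values are background-corrected log2 intensities. A level is the value on an array, a change is day 19 minus day 13 with its standard error (SE), and a gene was called at a limma p-value under 0.05 after Benjamini-Hochberg adjustment over 15112 genes. The level that counts as above background was 6.63. A gene whose probe lies below it on both arrays of an age has only a bound there, and its fold is written as "at least". Replicates A and B differed with an SD over genes of 0.19 at day 19 and 0.156 at day 13, and 23880 to 23896 of 45281 probes were above background on each of the 4 arrays. In whole testes, fewer cells of a type and less RNA per cell cannot be told apart, and a change is relative to the rest of the RNA on the array.

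Regulatory sequence of genes that moved together is shown for the axoneme, the motile core of the sperm tail. Rfx2, which encodes a transcription factor of ciliary genes and of round spermatids, had 13.87 and 13.90 at day 19, against 11.64 and 11.71 at day 13. It rose by 2.21 (SE 0.15, adjusted p = 1.9e-13). Factors of this family bind X-box sequences. Of 16 axoneme genes called at least 4-fold higher, 15 had an entry in the RefSeq promoter table (GRCm38.p6), and 5 of these held the core letters GTTGCC or GTTGCTA, on either strand, in the 250 bases before the start. Those 5 are printed 5′ to 3′ on the gene's strand, with each match (or its reverse complement) in capitals. They lie at chr11:63061409-63061658 (plus strand, Tekt3), chr1:69826720-69826969 (plus, Spag16), chr5:5664233-5664482 (minus, Cfap69), chr11:72361883-72362132 (minus, Tekt1) and chr8:110266727-110266976 (plus, Hydin).
Tekt3: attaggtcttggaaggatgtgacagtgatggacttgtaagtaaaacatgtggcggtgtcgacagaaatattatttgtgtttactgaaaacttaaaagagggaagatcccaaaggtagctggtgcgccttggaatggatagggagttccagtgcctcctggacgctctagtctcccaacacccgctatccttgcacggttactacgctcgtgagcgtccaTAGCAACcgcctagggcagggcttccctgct
Spag16: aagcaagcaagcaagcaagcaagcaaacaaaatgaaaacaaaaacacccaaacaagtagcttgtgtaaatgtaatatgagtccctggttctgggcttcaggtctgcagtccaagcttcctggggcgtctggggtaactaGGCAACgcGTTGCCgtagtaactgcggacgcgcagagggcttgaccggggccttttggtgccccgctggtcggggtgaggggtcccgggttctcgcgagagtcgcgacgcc
Cfap69: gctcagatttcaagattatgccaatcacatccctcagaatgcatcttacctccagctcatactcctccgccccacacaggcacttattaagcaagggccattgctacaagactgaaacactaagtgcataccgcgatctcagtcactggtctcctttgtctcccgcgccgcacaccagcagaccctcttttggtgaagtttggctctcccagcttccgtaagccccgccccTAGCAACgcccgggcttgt
Tekt1: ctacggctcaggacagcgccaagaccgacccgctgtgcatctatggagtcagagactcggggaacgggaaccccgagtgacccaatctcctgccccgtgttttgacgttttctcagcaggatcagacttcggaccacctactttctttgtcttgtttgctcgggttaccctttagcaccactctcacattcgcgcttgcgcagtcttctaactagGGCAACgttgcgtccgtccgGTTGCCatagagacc
Hydin: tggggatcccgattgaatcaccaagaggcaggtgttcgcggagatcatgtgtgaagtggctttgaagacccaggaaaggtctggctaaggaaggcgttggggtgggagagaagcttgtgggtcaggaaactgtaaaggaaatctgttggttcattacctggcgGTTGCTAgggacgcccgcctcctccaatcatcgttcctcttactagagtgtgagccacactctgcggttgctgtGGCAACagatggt
In windows of 250 bases before to 50 after the start, GTTGCC stood in 7 of 24 promoters of the axoneme list (29.2%) and in 12.9% of 12095 promoters of all genes tested. Among promoters of all genes called at least 4-fold higher it stood in 22.3%. GTTGCTA stood in 5 of the 24 (20.8%), in 3.77% of all and in 9.84% of those of genes called at least 4-fold higher. The full X-box, searched on both strands as GTTGCC, 2 bases of any kind and then GGNAAC, stood in 0 of the 24 and in 45 of the 12095 (0.372%). Letters of other factors were also searched. CNGTTA, of MYB factors, stood in 10 of the 24 (41.7%) and in 20.1% of all. TGACGTCA stood in 1 of the 24 and in 2.87% of all, and TATAAA in 2 of the 24 and in 9.32% of all. The forms were chosen after other forms had been seen on these data, so the shares are a description. A match is not a binding site, and absence of these letters says nothing of the factor.

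More genes were called lower than higher from day 13 to day 19. Of 15112 genes 8616 were called (57%), of which 3252 were higher (21.5% of all genes) and 5364 lower (35.5%), and the median change of all genes was -0.12. The increases were the larger ones. Calls of at least 2-fold numbered 1523 higher and 1225 lower, and calls of at least 4-fold numbered 639 higher and 6 lower. Of the 2302 genes below background on both day 13 arrays 572 were called higher, and of the 2119 below background on both day 19 arrays 262 were called lower. Day 19 arrays did not overlap day 13 arrays for 79.3% of genes, 29.8% upward and 49.4% downward.

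The 12 largest increases were of genes known for expression in male germ cells or little described. Hspb9, a small heat shock protein of the testis, had 13.12 and 13.25 at day 19, against 6.34 and 6.65 at day 13, a rise of 6.70 (SE 0.29, adjusted p = 2.0e-17). Adam3, a sperm surface protein needed for fertilization, had 13.67 and 13.73 at day 19, against 7.22 and 7.10 at day 13, and rose by 6.54 (SE 0.27). Both genes went from at or near background to levels among the brighter genes of the array. Only genes whose ages did not overlap could enter this ranking. Ppp3r2, a testis subunit of the phosphatase calcineurin, had 13.39 and 13.49 at day 19, against 7.68 and 7.50 at day 13 (5.85, SE 0.25). Ggn, which encodes gametogenetin, had 12.22 and 12.19 at day 19, against 6.58 and 6.33 at day 13, and was at least 47.6-fold higher. Ms4a19, of a family of membrane-spanning proteins, had 11.94 and 12.38 at day 19, against 6.34 and 6.30 at day 13, at least 46-fold higher. Pgk2, the phosphoglycerate kinase of meiotic and later germ cells, had 12.44 and 12.67 at day 19, against 7.04 on both day 13 arrays (5.51, SE 0.27, adjusted p = 1.6e-16). Abca14, of a family of membrane transporters, had 11.86 and 12.20 at day 19, against 6.49 and 6.44 at day 13, at least 42.1-fold higher (adjusted p = 1.9e-15). The others, Plaat5, Rasl2-9, Pabpc2, Adam18 and Pebp4, rose by 5.54 to 5.90. Other probes of Plaat5, Pebp4, Ggn and Abca14 rose less, by as little as 1.37, 1.77, 1.87 and 0.89.

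The 12 largest decreases were smaller, from -2.93 to -1.90. Dlk1, a Delta-like membrane protein of progenitor cells including those of the Leydig lineage, had 10.36 and 10.64 at day 19, against 13.46 and 13.40 at day 13, and fell by 2.93 (SE 0.18, adjusted p = 3.3e-14). Pdlim4, a PDZ and LIM domain protein of the actin cytoskeleton, had 9.47 and 9.59 at day 19, against 11.92 and 11.93 at day 13 (-2.39, SE 0.15). Sohlh1, a transcription factor of differentiating spermatogonia, had 10.53 and 10.42 at day 19, against 12.45 and 12.36 at day 13 (-1.94, SE 0.21). Tnfrsf12a, the receptor of the cytokine TWEAK, had 7.58 and 7.63 at day 19, against 9.56 and 9.55 at day 13 (-1.95, SE 0.21). The remaining decreases were of Nudt19, Bex2, Otof, Rasl10a, Arhgef4, Sel1l3, Spon2 and Wdr82. For the last 3 another probe moved little: -0.01 for Sel1l3, -0.02 for Spon2 and -0.14 for Wdr82, against -2.61, -2.14 and -1.97 on the probes used.

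**Figure D1:**
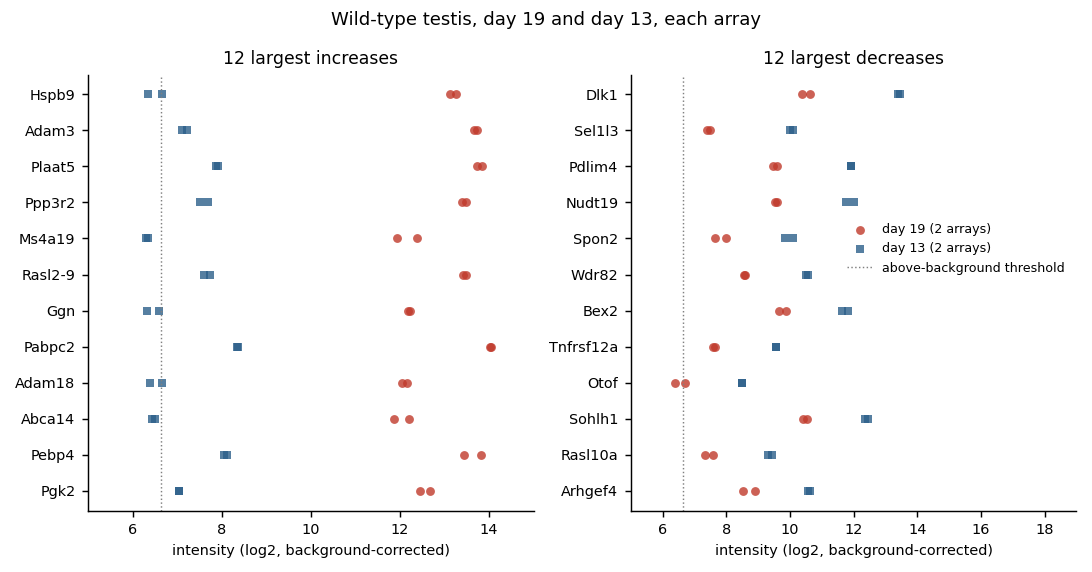
Background-corrected log2 intensity of the 12 largest increases (left) and 12 largest decreases (right) on each wild-type array, day 19 as circles and day 13 as squares; the dotted line is the above-background level of 6.63. For every gene shown the 2 arrays of an age lie close together. Only called genes whose ages did not overlap could enter, so the lack of overlap was set by the choice. Hspb9 changed by 6.70 and Dlk1 by -2.93.

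Lists of stage and cell-type genes order these changes. The 24 lists hold 463 genes, of which 379 were tested, 136 were called higher and 160 lower; the counts below are read against the 21.5% higher and 35.5% lower of all genes. A member enters only if above background on at least 2 of all 38 arrays, so late spermatid genes enter through older testes and the medians are of tested members only.

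Spermatogonial and stem cell markers were mostly lower at day 19. Of 21 tested 15 fell and 2 rose, with a median change of -0.94. Stra8, needed for entry into meiosis, had 10.12 and 9.91 at day 19, against 11.59 and 11.66 at day 13, and fell by 1.61 (SE 0.27, adjusted p = 7.4e-06). Sall4, a pluripotency factor kept in spermatogonia, fell by 1.57 (SE 0.23), Kit, the receptor of differentiating spermatogonia, by 1.19 (SE 0.20) and Zbtb16, of undifferentiated spermatogonia, by 1.17 (SE 0.24). Upp1, a uridine phosphorylase on this list, fell by 1.70 (SE 0.20). Another probe of Kit had -0.17. The members that rose were Id4, a marker of stem spermatogonia also known from spermatocytes, with 12.08 and 12.10 at day 19, against 10.58 and 10.57 at day 13 (1.51, SE 0.13), and Ddx4, a helicase of germ cells in general (1.14, SE 0.17). Ddx4 is named here because only 2 members rose. Genes of the mitotic cell cycle moved with them. Of 16 tested 8 fell and 2 rose (median -0.46), among them Ccnd2, a D-type cyclin, at -1.65 (SE 0.12), and Mcm2, a replication helicase subunit, at -1.53 (SE 0.14). The exceptions, Birc5 (0.96) and Cdk1 (0.47), act in cell division; 1 rose without day 19 replicate B, and 4 rose when the 4 arrays were fitted alone.

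Genes of meiotic entry to zygotene were divided. Of 18 tested 7 rose, 5 fell and 6 were not called (median 0.15). Spo11, which makes the meiotic double-strand breaks, had 13.25 and 13.08 at day 19, against 11.93 and 11.74 at day 13, and rose by 1.33 (SE 0.15, adjusted p = 8.4e-09). Syce1, of the central element of the synaptonemal complex, rose by 1.22 (SE 0.14), and Meioc, a meiotic RNA regulator, by 0.80 (SE 0.17). Syce2, a partner of Syce1 in that element, had 10.31 and 10.28 at day 19, against 11.09 and 10.96 at day 13, and fell by 0.73 (SE 0.15). With it fell Stra8, described above, and Rec8 (-0.70), Mei1 (-0.62) and Smc1b (-0.26). For 5 of the 7 that rose the increase was smaller than in the step from day 8 to day 13, as for 62 of all 3252 genes that rose (1.91%). Spo11 had stepped by 3.26 there, and the present step was smaller by 1.93 (SE 0.26, adjusted p = 9.8e-07). Sycp3, Dmc1 and Prdm9 were not analysed here.

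Genes of pachytene to the meiotic divisions rose in most cases. Of 37 tested 30 rose and 4 fell, with a median change of 1.63. The 4 that fell were Taf7l (-1.25), Ccnb3 (-1.01), Hsf2 (-0.44) and Cdc25c (-0.38), named because they are the exceptions, and 2 fell without replicate A of either age. Tdrd6, a scaffold of the germ cell granule, had 14.5 and 14.56 at day 19, against 9.40 and 9.49 at day 13, and rose by 5.08 (SE 0.25, adjusted p = 2.8e-16). Ccna1, the cyclin needed to leave meiotic prophase, had 10.59 and 10.95 at day 19, against 6.10 and 6.20 at day 13, and was at least 17.6-fold higher (adjusted p = 3.8e-13). Acr, the acrosomal protease acrosin, whose transcript appears in spermatocytes, had 11.56 and 11.69 at day 19, against 7.61 and 7.77 at day 13 (3.93, SE 0.18). Ybx2, an RNA-binding protein that stores germ cell transcripts, rose by 2.59 (SE 0.20). Genes already high at day 13 rose less. Hspa2, a chaperone of pachytene spermatocytes, had 15.44 and 15.34 at day 19, against 14.35 and 14.26 at day 13 (1.09, SE 0.11), and Ldhc, the lactate dehydrogenase of germ cells, had 15.32 and 15.37 at day 19, against 13.46 and 13.55 at day 13 (1.84, SE 0.40). Both are among the brightest probes, and other probes gave 2.05 for Hspa2 and 3.57 for Ldhc. Of the 30 that rose 16 did so by more than in the step before, 26 by more than in the step after and 15 by more than both, against 41.5% of all genes that rose for both.

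Round spermatid and acrosome genes also rose in most cases. Of 47 tested 39 rose and 1 fell (median 1.41), and 21 of the 47 were below background on both day 13 arrays. The member that fell was Ace, which lost its call without replicate B of either age and with the mean of its probes, and is named here for that reason. Crem, the transcription factor that drives the spermatid programme, had 11.15 on both day 19 arrays, against 8.27 and 8.36 at day 13, and rose by 2.83 (SE 0.13, adjusted p = 1.1e-16). Its 5 probes rose by 0.79 to 2.83. Pgam2, a phosphoglycerate mutase, rose by 5.14 (SE 0.22), Papolb, the cytoplasmic poly(A) polymerase of spermatids, by 4.69 (SE 0.23), and Zpbp2, an acrosomal protein that binds the zona pellucida, by 4.64 (SE 0.22). Spata16, an acrosome protein, rose by 4.50 (SE 0.30), with another probe at -0.21, and Dkkl1, a Dickkopf-like acrosomal protein, by 4.04 (SE 0.18), with another probe at 0.26. A second set of members was only beginning to be seen. Acrv1, an acrosomal vesicle protein, had 8.51 and 8.83 at day 19, against 6.05 and 6.15 at day 13, at least 4.1-fold higher, and Catsper1, a sperm calcium channel subunit, had 7.02 and 7.21 at day 19, against 5.86 and 5.97 at day 13, at least 1.39-fold higher. Spaca1, of the inner acrosomal membrane, had 9.11 and 9.12 at day 19, against 8.30 and 8.52 at day 13 (0.70, SE 0.15).

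Elongating and late spermatid genes divided into some that rose and others that were not called. Of 21 tested 12 rose, none fell and 9 were not called (median 0.98). Below background on both arrays of an age were 17 at day 13 and 5 at day 19. Odf4, of the outer dense fibres of the tail, had 13.62 and 13.56 at day 19, against 9.72 and 9.80 at day 13 (3.83, SE 0.21). Odf4 had already stepped by 3.33 from day 8 to day 13, and it stepped by 0.44 from day 19 to day 27. Odf1, of the same fibres, had 8.42 and 8.89 at day 19, against 6.89 and 6.75 at day 13 (1.84, SE 0.22, adjusted p = 3.0e-08). Hils1, a linker histone of spermatids, had 8.07 and 8.64 at day 19, against 5.68 and 6.18 at day 13, at least 3.29-fold higher. Smcp, a mitochondrial capsule protein of sperm, was at least 2.63-fold and Capza3, a testis actin capping subunit, at least 2.33-fold higher. Of the genes that repackage sperm chromatin, Prm1, Tnp1 and Tnp2 were not called. Prm1, the protamine gene, had 6.04 and 6.52 at day 19, against 6.08 and 6.10 at day 13 (adjusted p = 0.37). Its probe was above background in younger wild-type testes, with 7.55 and 7.52 at day 3 and 7.77 and 7.8 at day 8, so its low values are uncertain. Tnp1, of transition protein 1, had 7.12 and 7.24 at day 19, against 7.11 and 7.21 at day 13 (0.02, SE 0.20, adjusted p = 0.94). Tnp2 had 6.64 and 6.6 at day 19, against 6.47 and 6.45 at day 13 (0.16, SE 0.14, adjusted p = 0.36). By day 27 these 3 genes stood at 15.27 and 15.22, 14.66 and 14.60, and 11.80 and 11.53. Prm2 was not analysed here.

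Axoneme and cilium genes were the list with the highest median, 2.32, and 25 of 28 rose while none fell. Tekt3, a tektin filament of the tail, had 11.44 and 11.65 at day 19, against 6.54 and 6.51 at day 13, at least 30.1-fold higher (adjusted p = 2.0e-15). Spag6l, of the central pair apparatus, rose by 4.39 (SE 0.19), Dnali1, an inner arm dynein light chain, by 4.19 (SE 0.16), Spag16, also of the central apparatus, by 4.03 (SE 0.21), and Dnah17, an outer arm dynein heavy chain of sperm, by 3.91 (SE 0.20). Probes disagreed in size for these genes, with smallest values of 1.23, 1.21, 0.34 and 0.40. Of the promoters printed above, those of Cfap69, Tekt1 and Hydin belong to genes that rose by 3.54, 3.49 and 2.25; they are named for their promoters, after their values were seen.

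Regulators of transcription and translation moved both ways. Of 24 tested 14 rose and 6 fell (median 0.55). Besides Rfx2 and Crem, Rfx4, a relative of Rfx2, rose by 3.09 (SE 0.15), with another probe at -0.11, and Tcfl5, a helix-loop-helix factor of spermatocytes, had 13.13 and 13.34 at day 19, against 11.21 and 11.24 at day 13 (2.01, SE 0.12). Pabpc2, a poly(A)-binding protein of the testis, had 14.03 and 14.05 at day 19, against 8.37 and 8.35 at day 13 (5.68, SE 0.24).

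**Figure D2:**
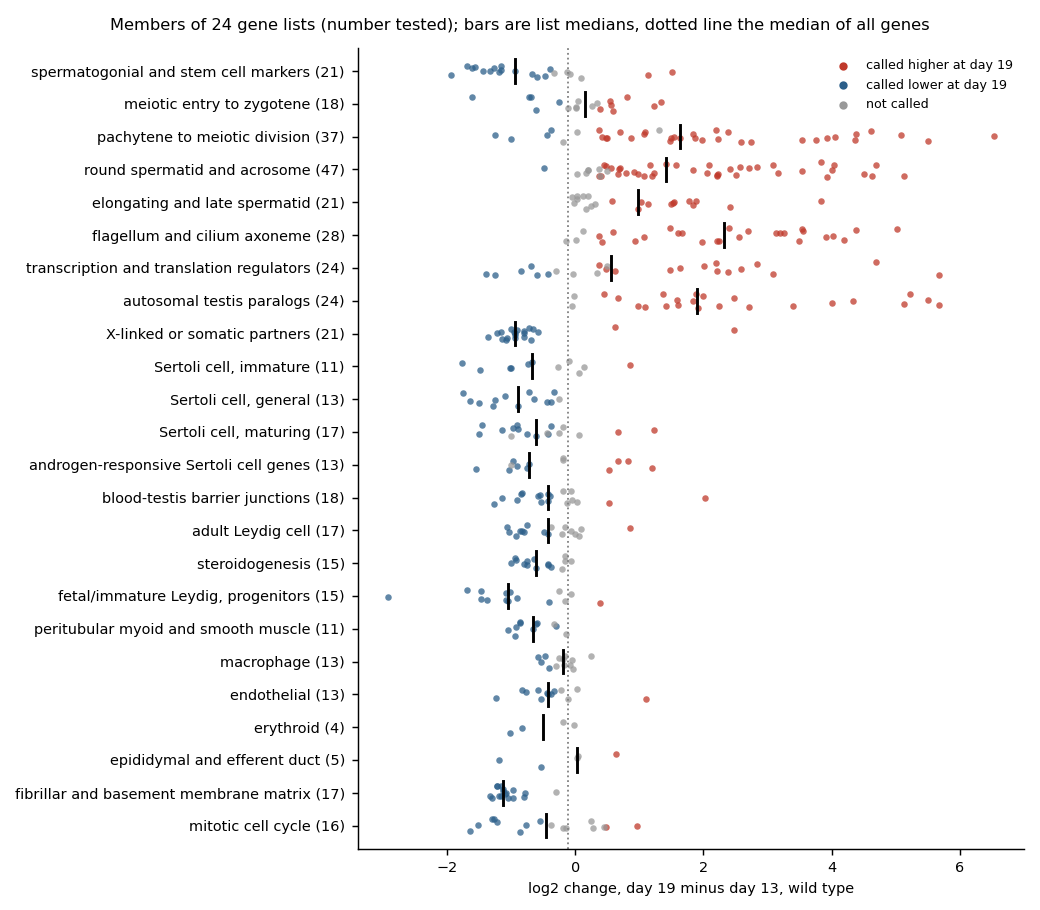
Log2 change between day 13 and day 19 of the wild type for each tested member of 24 gene lists, coloured by call, with the list's median as a bar and the median of all genes, -0.12, as a dotted line. Pachytene, spermatid, axoneme and testis paralog lists lie mostly right of the line, while spermatogonial, Sertoli, Leydig and matrix lists lie mostly left of it.

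Some housekeeping genes have testis copies on autosomes, which for an X-linked gene can stand in when it is silenced in meiosis. The partners listed here are X-linked or somatic, and some are autosomal, such as Gapdh (chromosome 6) and Aldoa (chromosome 7). Testis copies and partners mostly moved in opposite directions, and the partners were not split by chromosome. Of 24 autosomal testis paralogs 22 rose and none fell (median 1.90), and of 21 X-linked or somatic partners 19 fell and 2 rose (median -0.94). Pgk1, the X-linked partner of Pgk2, had 10.17 and 10.21 at day 19, against 11.41 and 11.25 at day 13, and fell by 1.15 (SE 0.13, adjusted p = 2.5e-08), with another probe at -0.08. Prps1l1, the testis copy of a phosphoribosyl pyrophosphate synthetase, had 13.85 and 14.10 at day 19, against 8.79 and 8.73 at day 13 (5.22, SE 0.18), and Gk2, a testis glycerol kinase, had 13.65 and 13.92 at day 19, against 9.47 and 9.44 at day 13 (4.33, SE 0.25). Among the partners Gapdh, of glycolysis, fell by 1.37 (SE 0.11), Aldoa, an aldolase, by 1.22 (SE 0.12) and Tkt, a transketolase, by 1.17 (SE 0.13). The 2 partners that rose were Ldha, somatic lactate dehydrogenase, with 13.55 and 13.81 at day 19, against 11.21 and 11.22 at day 13 (2.47, SE 0.16), and Pabpc1 (0.62, SE 0.14), named because they are the exceptions. Whether the probe of Ldha also binds transcripts of other lactate dehydrogenase genes was not tested.

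A larger share of X-linked than of autosomal genes was called lower. Of 567 X-linked genes 42 were called higher (7.41%) and 366 lower (64.6%), with a median change of -0.63. Of 14475 autosomal genes 22% were higher and 34.5% lower, with a median of -0.11, and the medians of the 19 autosomes lay between -0.16 and -0.07. The X-linked median was -0.07 in the step from day 8 to day 13 and -0.35 in the step from day 19 to day 27. The X-linked genes named here were chosen after their values were seen. Bex2 had 9.86 and 9.66 at day 19, against 11.63 and 11.81 at day 13 (-1.96, SE 0.14), and Gpc3, a glypican, had 9.20 and 9.27 at day 19, against 11.07 and 11.13 at day 13 (-1.86, SE 0.14). Hdac6, a cytoplasmic deacetylase, fell by 1.52 (SE 0.17) and Rps4x, a ribosomal protein gene, by 1.5 (SE 0.13). The X-linked genes that rose were led by Ssxb2, with 8.80 and 8.91 at day 19, against 6.67 and 6.51 at day 13 (2.27, SE 0.23). Ssxb5 had 8.38 and 8.47 at day 19, against 6.30 and 6.12 at day 13, at least 3.46-fold higher, and Ssxb8 rose by 1.79 (SE 0.28). Akap4, an anchoring protein of the fibrous sheath, had 7.44 and 7.68 at day 19, against 6.13 and 5.90 at day 13, at least 1.89-fold higher. The Ssxb genes are near-identical copies, so their probes may share signal and their values are uncertain.

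**Figure D3:**
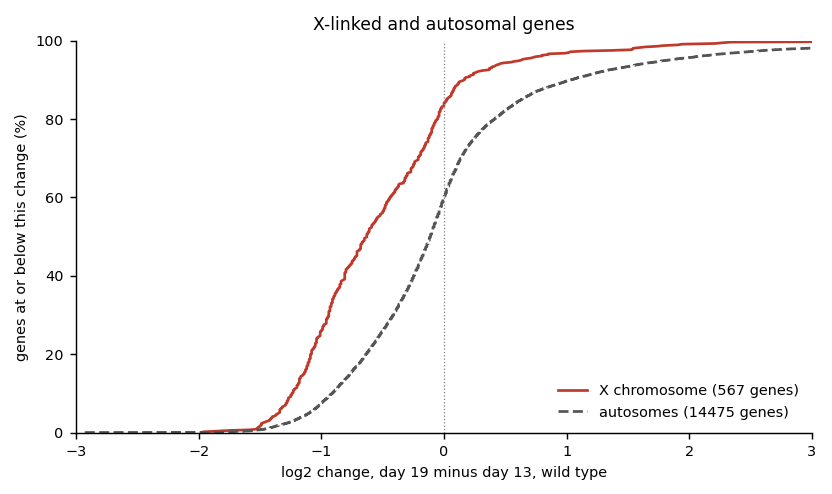
Cumulative share of genes, in percent, at or below each log2 change between day 13 and day 19 of the wild type, for 567 X-linked genes (solid) and 14475 autosomal genes (dashed); the axis ends at -3 and 3. The X-linked curve lies to the left, with medians of -0.63 for the X chromosome and -0.11 for autosomes.

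On the Y chromosome 16 genes were tested, 9 rose and 4 fell, and these too are named after their values were seen. Those that rose belong to multicopy families of spermatids. Sly, a Y-linked regulator of sex chromosome genes in spermatids, had 10.06 and 10.42 at day 19, against 6.79 and 6.66 at day 13 (3.51, SE 0.32, adjusted p = 2.1e-10), and Ssty2 had 9.39 and 9.65 at day 19, against 6.47 and 6.34 at day 13, at least 7.39-fold higher (adjusted p = 1e-08). Copies share sequence, so these values are uncertain as values of single genes. The 4 that fell were Usp9y (-0.94, SE 0.13), Eif2s3y (-0.90, SE 0.15), Kdm5d (-0.85, SE 0.16) and Zfy1 (-0.70, SE 0.13), the first 3 broadly expressed genes.

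Sertoli cell genes were mostly lower at day 19, those of maturing cells included. Of 13 general Sertoli markers 12 fell and none rose (median -0.90). Dhh, the hedgehog ligand that Sertoli cells send to the interstitium, had 10.70 and 10.65 at day 19, against 12.42 and 12.44 at day 13, and fell by 1.75 (SE 0.11, adjusted p = 5.5e-14). Sox9, the transcription factor of Sertoli identity, had 12.39 and 12.28 at day 19, against 14.03 and 13.94 at day 13 (-1.65, SE 0.12). Shbg, androgen-binding protein, fell by 1.5 (SE 0.13), Gdnf, a growth factor for stem spermatogonia, by 1.29 (SE 0.11) and Tuba1a, a tubulin, by 1.26 (SE 0.15). Wt1 and Clu were not analysed here.

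Of 11 markers of immature Sertoli cells 6 fell and 1 rose (median -0.68). Inhba, an inhibin and activin subunit, had 6.86 and 7.09 at day 19, against 8.70 and 8.80 at day 13 (-1.77, SE 0.16). Amh, anti-Müllerian hormone, had 7.07 and 7.03 at day 19, against 8.6 and 8.49 at day 13 (-1.49, SE 0.17), and its step from day 8 to day 13 was -1.96. Inha, the inhibin alpha subunit, fell by 1.02 (SE 0.11), Bmp4, a growth factor, by 1.00 (SE 0.20) and Fshr, the receptor of follicle-stimulating hormone, by 0.74 (SE 0.14). The member that rose was Krt8, a keratin (0.85, SE 0.17), with another probe at -0.01.

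Of 17 maturing Sertoli markers 10 fell and 2 rose (median -0.62), and 1 rose without replicate B of either age. Aqp8, a water channel, had 8.45 and 8.31 at day 19, against 7.10 and 7.22 at day 13, and rose by 1.22 (SE 0.21, adjusted p = 1.4e-05). Tsx, a Sertoli and spermatocyte gene of the X-inactivation centre, had 9.76 and 9.90 at day 19, against 9.22 and 9.10 at day 13 (0.67, SE 0.23), and was not called without replicate B of either age. Rhox8, a homeobox gene of Sertoli cells, fell by 1.46 (SE 0.13), Gja1, the gap junction protein connexin 43, by 1.15 (SE 0.11) and Cst12, a cystatin, by 0.92 (SE 0.12). Trf, transferrin, had 8.34 and 8.09 at day 19, against 8.48 and 8.47 at day 13 (-0.26, SE 0.18), and was not called.

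Of 13 androgen-responsive Sertoli genes 4 rose and 6 fell (median -0.72), and 2 rose without day 13 replicate B. The 4 were Corin, Ngfr (0.82), Tsx and Cldn3. Corin, a serine protease, had 10.98 and 11.01 at day 19, against 9.82 and 9.78 at day 13 (1.20, SE 0.30). Defb36, a beta-defensin, had 12.52 and 12.19 at day 19, against 13.94 and 13.89 at day 13 (-1.56, SE 0.20). Rhox5, an androgen-regulated homeobox gene, had 11.49 and 11.31 at day 19, against 12.36 and 12.47 at day 13 (-1.01, SE 0.47), and was not called (adjusted p = 0.066), though its arrays did not overlap. It was called when only the 4 arrays, or only the 10 wild-type arrays, were fitted. Tpd52l1 fell by 1.04 (SE 0.14) and Drd4, a dopamine receptor, by 0.98 (SE 0.40), and Drd4 lost its call without any 1 of the 4 arrays.

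Genes of the blood-testis barrier fell more often than they rose. Of 18 tested 11 fell and 2 rose (median -0.43), 7 fell without day 19 replicate A, and 1 rose without day 13 replicate B. Nectin3, an adhesion protein on the germ cell side of Sertoli contacts, had 13.80 and 13.83 at day 19, against 11.78 and 11.79 at day 13, and rose by 2.03 (SE 0.16, adjusted p = 1.2e-11). Its Sertoli-side partner Nectin2 had 11.92 and 11.82 at day 19, against 13.13 and 13.15 at day 13, and fell by 1.28 (SE 0.12). The 2 partners moved in opposite directions on every pair of arrays. Cldn3, a tight junction claudin, had 7.21 and 7.15 at day 19, against 6.87 and 6.44 at day 13 (0.52, SE 0.15), and was not called without day 13 replicate B. Cldn11, the main Sertoli claudin, had 14.74 and 15.04 at day 19, against 15.30 and 15.33 at day 13 (-0.43, SE 0.14), and was not called without day 19 replicate A. Ocln, occludin, fell by 0.92 (SE 0.12) and F11r, a junctional adhesion molecule, by 0.85 (SE 0.12).

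Most Leydig cell genes fell or were not called over these days. Of 17 adult Leydig genes 9 fell, 1 rose and 7 were not called (median -0.43). Insl3, the Leydig hormone of testicular descent, had 13.01 and 12.70 at day 19, against 12.91 and 12.81 at day 13, a change of 0.00 (SE 0.46). Cyp17a1, the enzyme that makes androgen precursors, had 11.35 and 10.78 at day 19, against 11.29 and 11.27 at day 13 (-0.21, SE 0.52, adjusted p = 0.76). Day 19 arrays lay around those of day 13 for both genes, and the errors, which draw on the spread within all groups, are wide. The gene that rose was Akr1c12, an aldo-keto reductase, with 7.87 and 7.69 at day 19, against 6.94 and 6.93 at day 13 (0.85, SE 0.17). Vcam1, an adhesion protein, fell by 1.07 (SE 0.15), with another probe at -0.05. Rarres1 fell by 1.04 (SE 0.15), Hsd17b3, which makes testosterone, by 0.93 (SE 0.16), with another probe at -0.03, and Aldh1a1, a retinaldehyde dehydrogenase, by 0.87 (SE 0.12). At day 3 Rarres1 already had 11.52 and 11.37, Hsd17b3 11.17 and 10.66, and Aldh1a1 14.05 and 14.1. Their falls therefore need not follow adult Leydig cells. Hsd3b6, the adult Leydig isoform of a steroid dehydrogenase, had 6.41 and 6.36 at day 19, against 6.78 and 6.85 at day 13, at least 1.13-fold lower, close to background, and was not called under 9 other settings.

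Of 15 steroidogenesis genes 11 fell and none rose (median -0.61). Hsd17b7 fell by 1.00 (SE 0.14), Tspo, a mitochondrial outer membrane protein, by 0.94 (SE 0.14), Cyb5a, a cytochrome b5 that aids androgen synthesis, by 0.80 (SE 0.17) and Cyp51, of cholesterol synthesis, by 0.76 (SE 0.18). Star, the cholesterol transport protein, had 6.83 and 6.72 at day 19, against 7.15 and 7.16 at day 13 (-0.38, SE 0.14). It lay close to background, as did Hsd3b1 with 7.66 and 7.57 at day 19, against 7.89 and 7.68 at day 13 (-0.17, SE 0.18, not called). Probes of Cyp11a1, which starts steroid synthesis, disagreed, from -0.43 on the probe used to 0.43, so no direction is given.

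Fetal and immature Leydig and interstitial progenitor genes fell further. Of 15 tested 11 fell and 1 rose (median -1.05). The riser was Crhr1, a hormone receptor (0.38), and averaging the probes of a gene ended its call. After Dlk1, Thbs2, a matrix thrombospondin, had 7.95 and 8.07 at day 19, against 9.72 and 9.69 at day 13 (-1.70, SE 0.17, adjusted p = 1.2e-09). Nes, an intermediate filament of stem cells, fell by 1.48 (SE 0.14), Lum, the matrix protein lumican, by 1.47 (SE 0.14) and Pdgfra, a growth factor receptor of Leydig precursors, by 1.39 (SE 0.14).

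Genes of the other somatic cells fell or were not called, with few exceptions. Of 17 fibrillar and basement membrane matrix genes 16 fell (median -1.13), such as Col5a1 (-1.33, SE 0.13), Lamc1 (-1.30, SE 0.12) and Col6a1 (-1.23, SE 0.12). Of 11 peritubular myoid and smooth muscle genes 9 fell (median -0.67), led by Mylk, myosin light chain kinase (-1.05, SE 0.13). Of 13 endothelial markers 9 fell and 1 rose (median -0.43), and 4 and 5 fell without day 13 and day 19 replicate A. Cdh5, vascular cadherin, was at -1.24 (SE 0.14), and the exception, Sox17, at 1.10 (SE 0.17). Of 13 macrophage markers 4 were called lower (median -0.20), namely Csf1r (-0.41), Adgre1 (-0.48), C1qb (-0.54) and Lyz2 (-0.59). Another probe of Lyz2 had 0.42, so no direction is given for that gene, and 1 of the 13 was called lower without replicate A of either age. The globin genes Hba-a1 (-0.83) and Hbb-bs (-1.03) were the 2 of 4 erythroid genes that fell, and 1 fell without day 13 replicate A or B or without day 19 replicate B. Of 5 epididymal and efferent duct genes Esr1 (-1.19) and Aqp1 (-0.54) fell and Cuzd1 (0.63) rose, and 1 fell without day 13 replicate A or day 19 replicate B.

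Summed over their tested members on the linear intensity scale, most somatic lists were lower at day 19. The general Sertoli list summed to 54130 and 54350 at day 19, against 94720 and 93000 at day 13. Adult Leydig genes summed to 46550 and 42790 at day 19, against 74660 and 68960 at day 13, and myoid genes to 33870 and 33610 at day 19, against 57970 and 56700 at day 13. The brightest members weigh most in such sums. In the adult Leydig list these include Gstm2 and Aldh1a1, which changed by -0.83 and -0.87, while Insl3 changed by 0. Aldh1a1 already had 14.05 and 14.1 at day 3, so this sum need not follow adult Leydig cells. The pachytene list summed to 317300 and 324000 at day 19, against 106700 and 102900 at day 13, and the round spermatid list to 86140 and 93050 at day 19, against 14450 and 14920 at day 13. For cells that could enter with blood or neighbouring tissue, erythroid genes summed to 12960 and 10440 at day 19, against 21360 and 22650 at day 13, macrophage genes to 5130 and 5871 at day 19, against 6684 and 6580 at day 13, and epididymal genes to 1104 and 998 at day 19, against 1806 and 1680 at day 13. No list gene has a true 0 on these arrays. The part of the rising germ cell RNA in the lower somatic values was not tested.

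The timing of each gene was tested against the neighbouring wild-type steps, which share the day 13 or day 19 arrays with this one. The step differed from the one before in 4730 genes (31.3%) and from the one after in 4836 (32%). Of the 3252 genes that rose, 1905 rose by more than in the step before, 2141 by more than in the step after and 1351 by more than in both. Of the 5364 that fell, 2349 fell by more than in the step before, 1146 by more than in the step after and 567 by more than in both. Without day 13 replicate A or B the 4730 became 3012 or 3072.

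Named genes fall along this order. Pgk2 stepped by 0.71 from day 8 to day 13, by 5.51 from day 13 to day 19 and by 1.40 from day 19 to day 27, and the middle step was larger than the one before by 4.81 (SE 0.46) and than the one after by 4.11 (SE 0.46, adjusted p = 2.2e-08). Ldhc, which comes on earlier, stepped by 6.12, 1.84 and -0.08 on its brightest probe, and other probes gave 2.35 and 3.57 for the middle step. Odf1, which comes on later, stepped by 0.00, 1.84 and 5.31, and the middle step was smaller than the last, with a difference of -3.48 (SE 0.38, adjusted p = 1.2e-08). For 22 of the 39 round spermatid genes that rose, and for 10 of the 12 elongating spermatid genes, the step was smaller than the one from day 19 to day 27. The same held for 3 of the 30 pachytene genes that rose and for 303 of all 3252 genes that rose (9.32%).

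**Figure D4:**
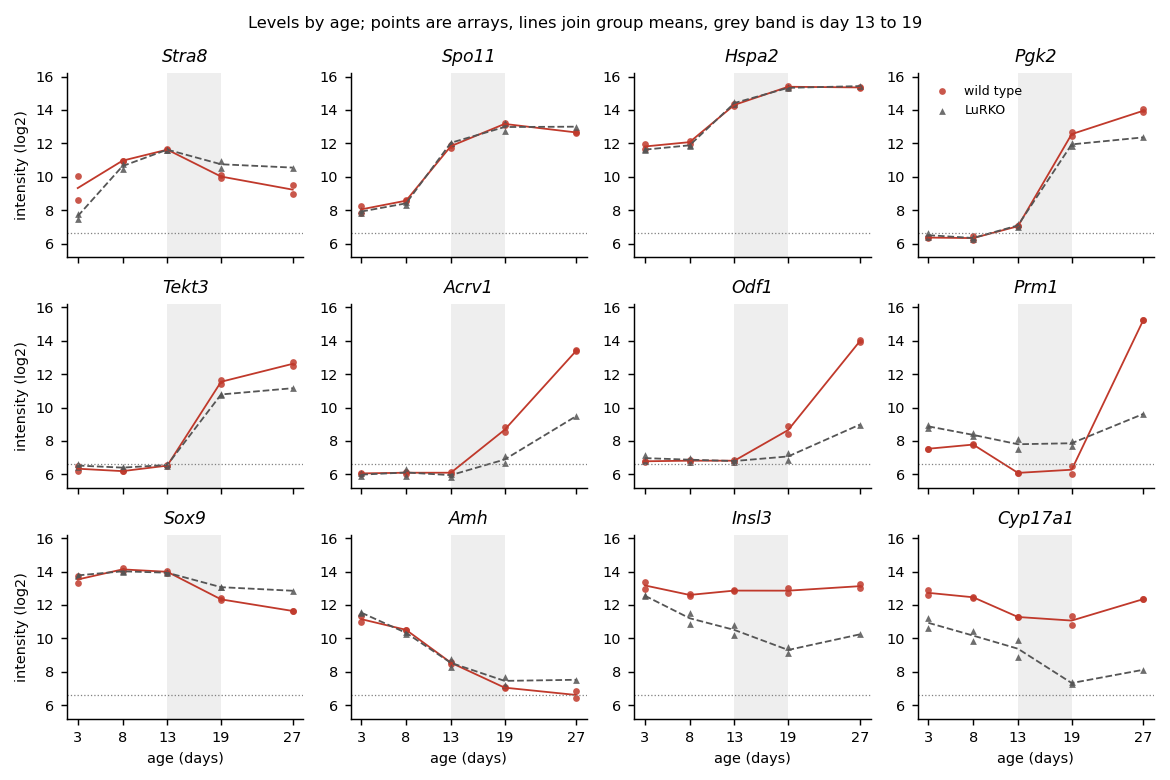
Background-corrected log2 intensity of 12 genes at days 3, 8, 13, 19 and 27 in wild-type (circles, solid line through means) and LuRKO testes (triangles, dashed line); points are arrays, the dotted line is the above-background level of 6.63 and the grey band spans day 13 to day 19. Spo11 and Hspa2 rise mostly before the band, Pgk2 and Tekt3 within it, Odf1 and Prm1 mostly after it, and Sox9 and Amh fall through it.

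Most genes did not differ between the genotypes past the threshold in this step. In LuRKO testes 6706 genes were called (44.4%), of which 2699 rose (17.9% of all genes) and 4007 fell (26.5%) from day 13 to day 19. The difference of the steps, wild type minus LuRKO, was called for 828 genes (5.48%), more positive in wild type for 374 (2.47%) and more negative for 454 (3%). Without day 13 replicate A or B of wild type the 828 became 250 or 257, and without day 19 replicate A or B of wild type 524 or 189. Without replicate A of LuRKO day 13 or day 19 it became 489 or 499. Of the 374 more positive genes 354 rose in wild type, with a median change of 1.57 in wild type and 0.465 in LuRKO testes. Of these 354, 190 also rose in LuRKO testes, and for 120 the wild-type step was smaller than the one from day 19 to day 27. Of the 454 more negative genes 434 fell in wild type, with a median of -1.06 in wild type and -0.312 in LuRKO testes, and 208 of them also fell in LuRKO testes.

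The difference between genotypes was called for a larger share of spermatid genes than of pachytene and axoneme genes. Over all genes the step was more positive in wild type for 2.47% and more negative for 3%. The pachytene list had a median change of 1.63 in wild type and 1.32 in LuRKO testes, with 3 of 37 members more positive in wild type. The axoneme list had 2.32 in wild type and 1.82 in LuRKO testes, with 1 of 28 more positive in wild type. The round spermatid list had 1.41 in wild type and 0.40 in LuRKO testes, with 12 of 47 more positive in wild type, and the elongating list had 0.98 in wild type and 0.21 in LuRKO testes, with 6 of 21. Adam3 rose by 6.54 in wild type and 5.84 in LuRKO testes, a difference of 0.70 (adjusted p = 0.28), whereas Odf1 rose by 1.84 in wild type and had 0.28 in LuRKO testes, a difference of 1.56 (SE 0.31, adjusted p = 0.0042). Levels of Acrv1 were 8.51 and 8.83 at day 19 and 6.05 and 6.15 at day 13 in wild type, and 7.12 and 6.66 at day 19 and 6.04 and 5.87 at day 13 in LuRKO testes.

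By the smallest p-values the more positive steps were of Ssty1, Speer4a, Speer4e, Stkld1, Zdhhc11 and Amer2. Ssty1, a multicopy Y-linked spermatid gene, had 8.20 and 8.04 at day 19 in wild type, against 6.41 and 6.31 in LuRKO testes, and was below background at day 13 in both genotypes (difference of steps 1.83, SE 0.22, adjusted p = 9.2e-05). Speer4a and Speer4e, of a multicopy testis family, had differences of 1.83 and 1.64, and Zdhhc11, a palmitoyltransferase, of 1.75; all were below background at day 13 in wild type, so these are fitted values. Copies of the Ssty1 and Speer4 families may share signal, so these values are uncertain as values of single genes. Stkld1, a kinase-like gene, had 10.06 and 10.13 at day 19 in wild type, against 8.83 and 8.62 in LuRKO testes, from 6.58 to 6.96 on all 4 day 13 arrays (difference 1.45, SE 0.22). Amer2, a Wnt pathway regulator, differed by 1.44 (SE 0.23).

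The more negative steps by this rule were of Pdlim4, Dhh, Gsta3, Myh8, Trpm7 and Dnm3os. Dhh fell by 1.75 in wild type and 0.76 in LuRKO testes (difference -0.99, SE 0.16, adjusted p = 9.1e-04). Pdlim4 fell by 2.39 in wild type and 0.93 in LuRKO testes (difference -1.46, SE 0.21). Myh8, a perinatal skeletal muscle myosin, fell by 1.83 in wild type and rose by 1.20 in LuRKO testes (difference -3.03, SE 0.52), where it had 9.60 and 9.41 at day 19, against 7.94 and 8.68 at day 13. Other probes of Myh8 had -0.32 and -0.4 in wild type, neither called, with differences of -0.73 (not called) and -0.97 (called). Gsta3, a glutathione transferase, differed by -1.01 (SE 0.17), and Trpm7 and Dnm3os, with differences of -0.96 and -1.04, were not called with the mean of their probes. Of 13 general Sertoli markers 4 had a more negative step in wild type, among them Sox9 (-0.78, SE 0.16) and Shbg (-0.86, SE 0.19), and of 18 barrier genes 4. Over all genes the share with a more negative step was 3%.

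For Insl3, Cyp17a1 and Rhox5 the difference between genotypes was not called. Insl3 changed by 0.00 in wild type and by -1.20 in LuRKO testes (difference 1.20, SE 0.65, adjusted p = 0.29), Cyp17a1 by -0.21 and -2.06 (1.84, SE 0.73, adjusted p = 0.13) and Rhox5 by -1.01 and -1.94 (0.93, SE 0.66, adjusted p = 0.44). LuRKO day 13 replicate B had Rhox5 at 10.61 where replicate A had 9.06, and Cyp17a1 at 9.89 where replicate A had 8.87. The difference was called for 1 of 13 androgen-responsive genes, Defb36 (-1.35, SE 0.28, adjusted p = 0.0064), and for 1 of 17 adult Leydig genes, the glutathione transferase gene Gstm2 (-0.57, SE 0.17, adjusted p = 0.043). Over all genes it was called for 5.48%. Aqp8 rose by 1.22 in wild type and had -0.27 in LuRKO testes (difference 1.49, SE 0.30, adjusted p = 0.0048).

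**Figure D5:**
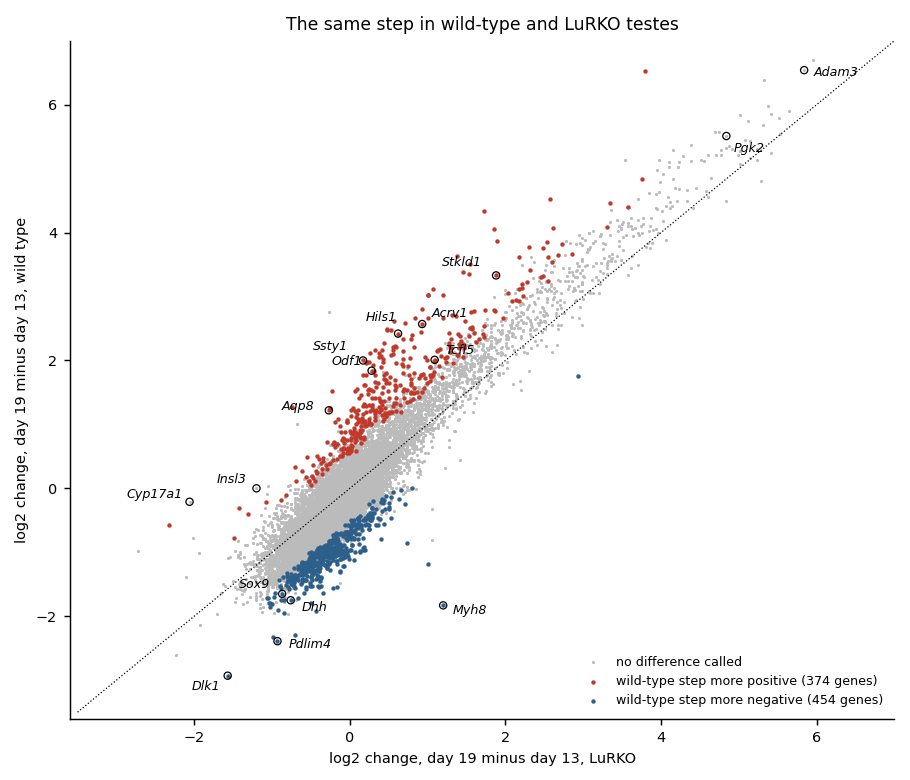
Log2 change from day 13 to day 19 in wild-type (vertical axis) and LuRKO testes (horizontal axis), 1 point per gene for 15112 genes; red marks the 374 genes with a more positive and blue the 454 with a more negative step in wild type, circles mark named genes, and the dotted line is equality. Adam3 and Pgk2 lie near the line, Odf1, Acrv1 and Ssty1 above it, and Dhh and Dlk1 below it.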

How the data were processed

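RNA of 38 mouse testis samples was hybridized to single-colour Illumina bead arrays. Per the labels' protocols, TRI reagent and an RNeasy step gave the RNA, which was amplified to biotin-labelled cRNA. The submitters' processing notes name BeadStudio without a version. The deposited values are probe intensities on a linear scale, normalized between arrays by the authors (array medians 108.1 to 108.3). A second table of signals was left out, since none of its 76 columns could be tied to a labelled sample.

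The deposited intensities went through normexp (offset 50) and log2 in limma 3.58.1 (R 4.3.3). The background mode was 76.22; a probe over 102.8 counted as above background, a limit set at a one-sided 0.01 by the spread under the mode. A single gene symbol was listed for 34885 of 45281 probes, several for 18 and none for 10378. Probes above background on at least 2 of 38 arrays were kept (31607, of which 25651 had a single symbol), and each gene was read from its brightest probe (15112 genes, 6618 with several probes). A bound ("at least N-fold") sets the bright age against the mean, per array, of the higher of the background level and the gene's own signal. The number of arrays limits the precision.

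Labels gave the groups. lmFit and eBayes were run on all 38 arrays, those of injected LuRKO mice included, with a mean for each group (residual degrees of freedom 18, prior 10.4). Each contrast was tested two-sided, with Benjamini-Hochberg adjustment over all genes; 9131 genes had an unadjusted p under 0.05 for day 19 against day 13. Replicate letters did not pair the samples: same-letter arrays of day 13 and day 19 deviated with a correlation over genes of -0.03. The contrast of day 19 with day 13 was tested on simulated data with 200 brighter genes changed among 15112. It recovered 30 of 67 at a log2 change of 0.5, 64 of 67 at 1, and all 66 at 2, and made 10 false calls. Far fewer genes were changed there than the 8616 called in the data, and the adjustment depends on that share. These figures therefore need not hold for the data.

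The ages, gene lists and comparisons were chosen with earlier results of these data known, so no list carries a test. Named genes are the 12 largest increases and decreases with arrays that do not overlap and a symbol that is not a clone name, up to 5 called members of each list by size (or its largest), a panel of testis genes, and the 6 smallest p-values each way for the difference between genotypes; not all are printed. Alternatives were no further background correction, arrays scaled to a common median, other filters on dim probes, averaging a gene's probes, fewer arrays in the fit, a replicate block, and omission of single arrays. Offset 16 and the omission of LuRKO arrays were chosen after seeing the data. Promoters and chromosomes come from RefSeq tables of GRCm38.p6, and matplotlib 3.10.9 drew the figures.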

Additional observations from a re-analysis of the deposited data

Results flagged for a closer look

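The results below stood out because the step from day 13 to day 19 differed between wild-type and LuRKO testes by a test of the difference itself (limma, adjusted p under 0.05). All 33 are differences of log2 changes, wild type minus LuRKO, among the named genes. Where a gene was below background at day 13, the difference is a fitted value.

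Among spermatid genes the wild-type step was more positive for Hils1 (1.81), Acrv1 (1.63), Capza3 (1.57), Odf1 (1.56) and Smcp (1.49). It was also more positive for Ssty1 (1.83), Speer4a (1.83), Zdhhc11 (1.75), Speer4e (1.64), Stkld1 (1.45), Amer2 (1.44) and Tcfl5 (0.91), and for the Sertoli water channel gene Aqp8 (1.49).

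The step was more negative in wild type for the Sertoli genes Defb36 (-1.35), Dhh (-0.99), Shbg (-0.86), Gdnf (-0.83) and Sox9 (-0.78), and for the junction genes Ocln (-0.75), Nectin2 (-0.68) and Gja1 (-0.54). It was more negative for Dlk1 (-1.36), Rasl10a (-1.49), Pdlim4 (-1.46), Nudt19 (-1.34), Otof (-1.10) and Arhgef4 (-0.98), which were also among the largest decreases in wild type, and for Myh8 (-3.03), Dnm3os (-1.04), Gsta3 (-1.01), Trpm7 (-0.96), Mcm5 (-0.81) and Gapdh (-0.55). The differences of Gapdh and Gja1 were not called without any 1 of the 4 wild-type arrays. Other probes of Myh8 had smaller differences, -0.73 and -0.97.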

How the results depend on the processing

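The 8616 genes called between wild-type day 19 and day 13 were 7516 to 9578 under the other settings, 8627 with the replicate block and 8534 with arrays scaled to 1 median, and 37.5% to 39.5% of calls were higher. The replicate block changed the call of 1 of 158 named genes, Hsd3b6 (-0.43). No result changed direction past its threshold. Leaving out 1 array at a time, the count of genes whose step differed between genotypes (828) lay between 189 and 747: it was 250 and 257 without wild-type day 13 replicates A and B, 524 and 189 without wild-type day 19 replicates A and B, and 489 and 499 without replicate A of LuRKO day 13 and day 19. The count whose step differed from the step before (4730) lay between 3012 and 4380, at 3012 and 3072 without day 13 replicates A and B. Fits to the 4 arrays alone, or to the 10 wild-type arrays alone, give no difference between genotypes, and the 4 arrays alone no difference between steps.

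Of the 158 named genes 149 to 151 kept their call when 1 of the 4 arrays was left out. Those that lost it were Adgre1, Csf1r, Lyz2, Hba-a1, Aqp1, Star, Cyp11a1, Cldn3, Cldn11, Tsx, Drd4 and Hsd3b6, with changes between -0.98 (Drd4) and 0.67 (Tsx). With the mean of a gene's probes Cyp11a1 had -0.01 and Lyz2 -0.08. Probes close to background (Star, Hsd3b6, Hsd3b1, Catsper1) and bright ones (Ldhc, Hspa2) can understate a change.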
